A study of Mus musculus with 21 samples.

Results

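The variable (V) gene segments of the T-cell receptor were followed in 21 RNA libraries of mouse liver tumours. They were taken by symbol, as every identifier of the count table whose GRCm38 name begins with Trav, Trbv, Trgv or Trdv, which gave 170 of the 55487 identifiers. There were 128 alpha (Trav) segments, 35 beta (Trbv), 6 delta (Trdv) and 1 gamma (Trgv2); 34 of the 170 are annotated as pseudogenes. Another 6 gamma segments are listed under Tcrg-V symbols and lie outside this choice.

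The tumours grew from Hepa1-6, a single mouse hepatoma line, in C57BL/6 mice, so each rests on 1 cell line and 1 strain. Mice were WT or labelled B-cell depletion, and received isotype antibody or anti-PD1 together with anti-CTLA4, 2 antibodies against inhibitory receptors of T cells. WT tumours gave 5 libraries under isotype antibody and 5 under the combination, and B-depleted tumours gave 6 and 5. The labels give neither the means of B-cell depletion nor age, dose or time, and do not say that each library is another animal; p-values therefore measure the spread between libraries, which may be technical.

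A T-cell receptor chain is made when a developing T cell joins a V segment to a joining segment (in beta and delta chains with a diversity segment between them) and the joined exon is spliced to a constant gene. Most T cells carry an alpha and a beta chain and recognise peptides on MHC molecules; a minority carry a gamma and a delta chain. Each T cell and its descendants keep their rearranged segments, so the mix of V segments in a tissue's RNA reflects which T cells are present, and a clone that has expanded raises its own segments.

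The 3′ ends of 6 segments are printed. Trav9-2, Trav6n-6 and Trav6d-4 were high in sets of libraries described below, Trav6n-6 not in its set alone. Trav8d-2 and Trbv3 were called in both backgrounds, and Trbv3 had the lowest p of any beta segment in B-depleted tumours. In WT tumours Trdv4 went the opposite way to the other segments tested. The 6 sequences are from GENCODE M21 on GRCm38, 5′ to 3′, without UTR. Only the last 150 coding bases are shown, with the interval and strand of the whole gene. Capitals run from the codon of the conserved cysteine to the annotated 3′ end. The cysteine was found as the last in-frame one that follows a tyrosine and any 1 residue. The hypervariable CDR3 loop opens in this stretch. How much of the stretch enters a joined chain was not tested. It is 21 bases long in Trbv3 and 13 to 15 in the others.
Trav9-2 (chr14:53590857-53591514, + strand): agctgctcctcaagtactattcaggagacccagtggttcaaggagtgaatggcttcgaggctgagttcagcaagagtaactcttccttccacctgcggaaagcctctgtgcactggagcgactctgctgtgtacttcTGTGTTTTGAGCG
Trav6n-6 (chr14:53132679-53133137, + strand): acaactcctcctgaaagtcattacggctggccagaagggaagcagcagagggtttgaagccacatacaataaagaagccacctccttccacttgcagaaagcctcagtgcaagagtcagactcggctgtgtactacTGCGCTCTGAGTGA
Trav8d-2 (chr14:53042428-53042891, + strand): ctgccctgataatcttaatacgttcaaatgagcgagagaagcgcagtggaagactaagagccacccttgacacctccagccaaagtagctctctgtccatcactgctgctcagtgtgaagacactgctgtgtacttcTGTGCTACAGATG
Trav6d-4 (chr14:52753367-52753846, + strand): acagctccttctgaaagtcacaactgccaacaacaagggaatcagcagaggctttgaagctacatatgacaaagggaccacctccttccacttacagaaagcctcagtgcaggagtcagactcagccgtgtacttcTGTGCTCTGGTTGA
Trbv3 (chr6:41048290-41048828, + strand): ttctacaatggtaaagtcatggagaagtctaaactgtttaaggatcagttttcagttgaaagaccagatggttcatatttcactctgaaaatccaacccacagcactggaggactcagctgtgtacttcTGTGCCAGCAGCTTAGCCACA
Trdv4 (chr14:54074905-54075515, + strand): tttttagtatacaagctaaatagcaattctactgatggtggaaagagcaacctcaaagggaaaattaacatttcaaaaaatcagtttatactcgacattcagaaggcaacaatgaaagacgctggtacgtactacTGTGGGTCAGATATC

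Alpha segments are hard to tell apart by sequence, and beta segments are not. The alpha locus of C57BL/6 holds duplicated blocks, whose copies carry a d or an n in their names. Of 108 non-pseudogene Trav segments, 30 have a coding sequence identical to that of another and 75 lie within 10 edits of one, with a median distance of 6.5 edits. The nearest pair of Trbv segments lies 32 edits apart, and the median is 121.5. How reads that match several copies were counted is not given in the sources used here, so a count for a single duplicated Trav segment is uncertain as to the copy. All 30 identical Trav segments were at 0 in every library, against 6 of the 45 with a nearest copy at 1 to 10 edits and 7 of the 33 with one further away. Whether reads that match several copies were left out was not tested. Of the alpha segments that recur below, Trav9d-1 lies 2 edits from Trav9-1, Trav9-2 lies 5 from Trav9d-2, and Trav6n-6 and Trav6d-4 each lie 9 from their undoubled namesakes Trav6-6 and Trav6-4. Trav12-2 lies 14 edits and Trav8d-2 lies 24 edits from its nearest non-pseudogene copy, so these are better told apart from such copies. Pseudogenes were not compared. Among them is Trav8-2, the undoubled namesake of Trav8d-2, which held 12 counts, so the distance between these namesakes is not known here.

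V segment transcripts were rare, and 67 of the 170 segments had no count in any library. The libraries held 9.52 to 19.17 M counts, so that 1 count was worth between 0.0522 and 0.105 CPM (counts per M counts of the library). At least 1 count was present for 73 Trav, 25 Trbv, 4 Trdv segments and Trgv2, a sum of 8910 counts over all libraries. Pseudogenes held 50 of these, or 0.561%. For a segment with no near copy, a count of 0 allows up to 3 counts in a library by counting error alone, that is 0.157 to 0.315 CPM; for the 30 identical Trav segments a count of 0 limits no level.

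Per length, Trdv4 stood first, at a mean of 19.6 CPM per kb of exon over the 21 libraries. Trbv15 (4.54 CPM per kb), Trgv2 (4.17), Trbv3 (2.98), Trbv29 (2.22), Trbv1 (2.09), Trav12-2 (1.73) and Trbv12-2 (1.71) followed. Only 14 segments passed the filter on low counts and could be tested, which were 10 Trbv, 2 Trav, Trgv2 and Trdv4. A segment could pass through the group in which it was high, so these 14 do not stand for the 170. The model was edgeR's quasi-likelihood test over 19061 genes with 4 groups, and the threshold for a call was an adjusted p of 0.05, by Benjamini-Hochberg over those genes. Values in parentheses below are log2 fold changes ± SE from that model.

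Before the groups are compared, the libraries need a remark, because several shared their Trav usage closely. Usage was compared with the Morisita overlap index, which is about 0 for libraries with no segment in common and about 1 for libraries drawn from the same mix; being corrected for sampling, it can exceed 1. Over pairs of libraries from different groups it ran from 0.00989 to 0.783, with a median of 0.297 over 165 pairs. Within groups, 7 pairs lay at 0.851 or above and the other 38 at 0.817 or below, with a median of 0.369. The limit of 0.85 was set after these values were seen. Trbv usage did not set the same 7 pairs apart: their Trbv index ran from 0.863 to 1.01, while that of other pairs reached 1.09 within groups and 0.996 between groups.

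The 7 pairs fell into 5 sets. WT isotype libraries 1 and 2 (index 0.982) shared Trav9-2, at 23.3% and 17.0% of their Trav counts, and Trav14-1, at 23.3% and 14.8%. WT isotype libraries 3 and 4 (1.03) shared Trav6n-6, at 50.0% and 45.9%, on totals of 32 and 37 Trav counts. It also led WT isotype library 5, at 19.8%, and B-depleted isotype library 5, at 10.6%. The exact 95% binomial intervals of the shares in WT isotype libraries 3 and 4 are 31.9 to 68.1% and 29.5 to 63.1%. Like all such intervals here they cover counting error only.

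Each of these sets was high in a segment that had at most 1 count in either library of the other set, although all 4 libraries are of the same group. B-depleted combination libraries 1, 2 and 3 (0.892 to 0.947) shared Trav9d-1, at 12.6%, 7.80% and 8.75%, which held at most 1 count in libraries 4 and 5. Trav9d-1 also stood at 8.0% in B-depleted isotype library 6, on 2 of 25 Trav counts, so it was not found at such shares in this set alone. Trav8d-2 was at 10.5%, 22.7% and 13.8% in the 3 libraries of the set. It was also at 11.3% in B-depleted combination library 5 and 10.8% in WT combination library 5, so it does not mark the set. B-depleted combination libraries 4 and 5 (0.976) shared Trav6d-4, at 40.8% and 33.0%, with exact intervals of 31.0 to 51.2% and 24.2 to 42.8%. Trav6d-4 reached at most 4.57% in any other library, that of WT combination library 1.

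WT combination libraries 3 and 4 made the fifth set, just past the limit at 0.851. They held Trav12-2 at 19.7% and 20.8%, and Trbv15 at 30.8% and 31.4% of the beta counts. Neither segment marks this pair, since Trav12-2 reached 30.8% in B-depleted isotype library 1 and Trbv15 29.4% in B-depleted isotype library 4. With the leading Trav segment of each library left out, the index of this pair fell to 0.543, while that of the other 6 pairs stayed at 0.907 or above. Pairs that were not linked then reached 1.03 within groups and 1.23 between groups. High values of this measure therefore did not set the linked pairs apart. With duplicated copies summed to 1 name, the 7 pairs lay between 0.852 and 1.03. Other pairs then reached 0.946 within groups and 0.941 between groups. Over 17482 other genes, deviations from the group mean correlated between the 2 libraries of a linked pair at -0.67 to 0.53, against -0.70 to 0.45 in the other same-group pairs. Whether linked libraries come from the same animal was not tested, and results are given below also with each set summed to 1 sample, which leaves 15 samples, with 3 WT isotype, 4 WT combination, 2 B-depleted combination and the 6 B-depleted isotype libraries as they were.

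**Figure D1:**
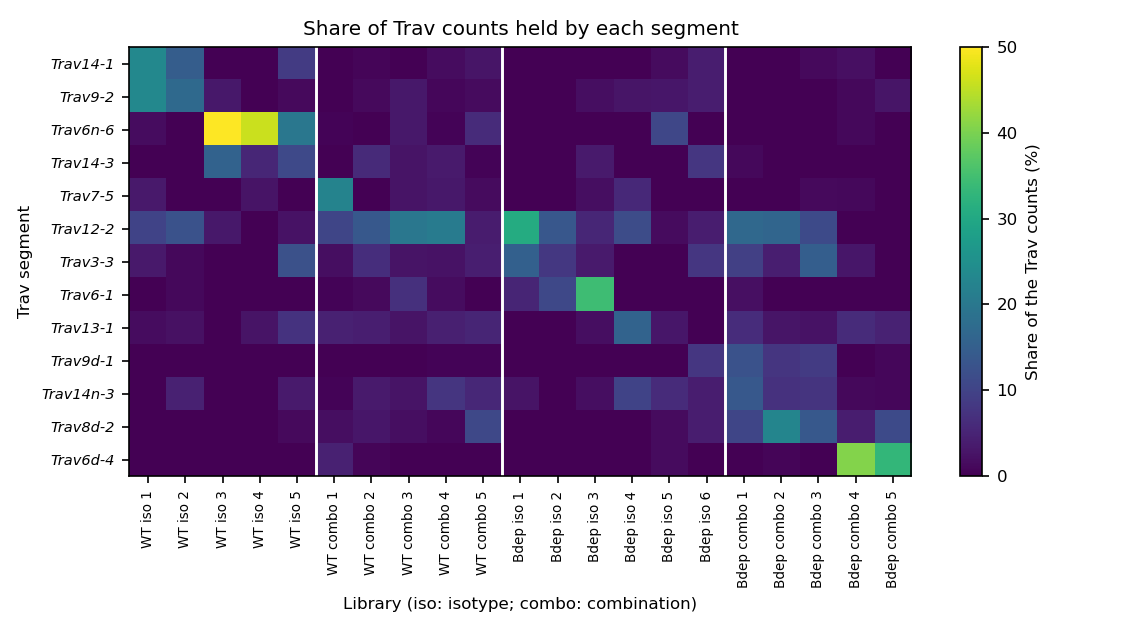
Share of a library's Trav counts (colour, %) held by each of the named Trav segments that reached 10% in at least 1 library (rows), in the 21 libraries (columns, with white lines between the 4 groups). Segments outside the naming rule given below are not drawn, whatever their share. Trav6n-6 holds 50.0% and 45.9% in WT isotype libraries 3 and 4, and Trav6d-4 holds 40.8% and 33.0% in B-depleted combination libraries 4 and 5.

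**Figure D2:**
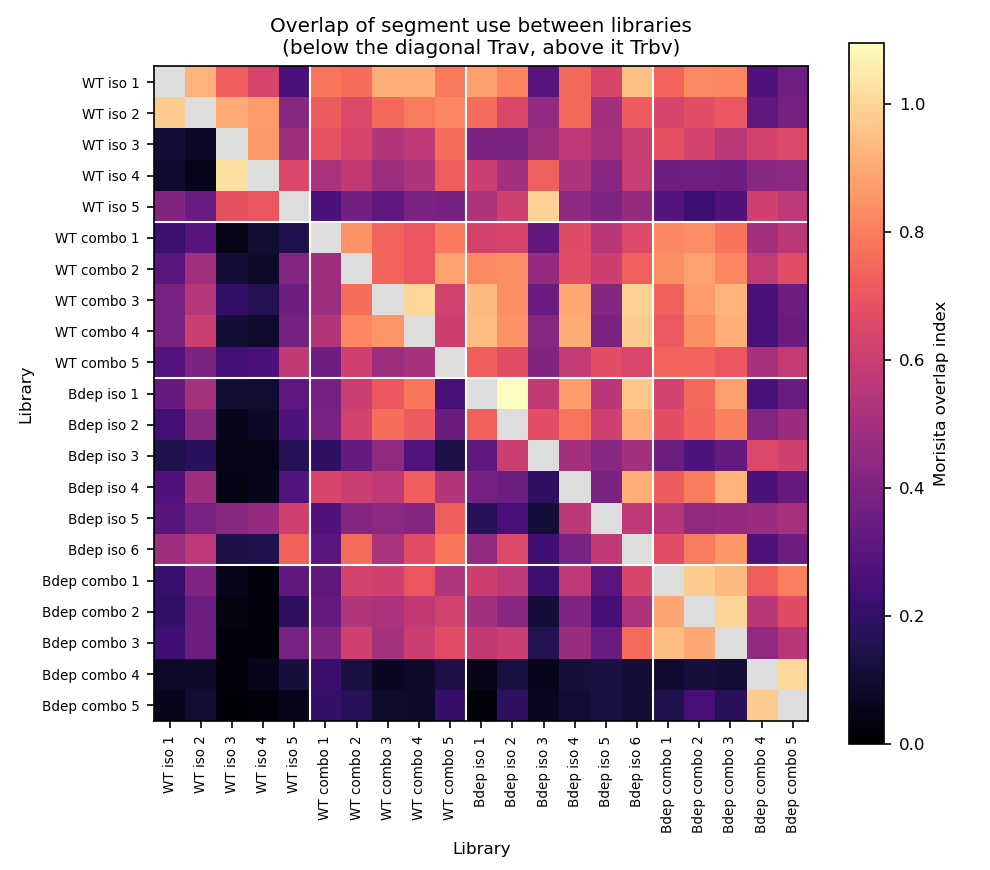
Morisita overlap index (colour, no unit) between every pair of the 21 libraries, for Trav usage below the diagonal and Trbv usage above it; the diagonal is grey. The bright cells below the diagonal beside it are the linked pairs, at 0.851 to 1.03, and most other Trav cells are darker than the Trbv cells, with medians of 0.297 and 0.628 between libraries of different groups.

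Summed over each locus, alpha, beta and gamma segments were higher after the combination in both backgrounds, and delta segments were lower in WT. Trbv segments summed to 3.89 ± 1.58 CPM (SD, n = 5) in WT isotype and 21.4 ± 5.68 (n = 5) in WT combination, against 4.61 ± 1.59 (n = 6) and 11.4 ± 2.36 CPM (n = 5) in the B-depleted groups. Trav segments summed to 3.53 ± 1.66, 12.2 ± 2.02, 3.15 ± 1.35 and 8.46 ± 1.96 CPM in the same order. The lowest combination library lay above the highest isotype library of its background for both loci: 14.7 against 5.46 CPM (Trbv) and 9.88 against 5.85 CPM (Trav) in WT, and 9.15 against 6.14 CPM and 5.95 against 5.04 CPM in B-depleted tumours.

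Trgv2 stood at 1.21 ± 0.409, 3.79 ± 0.835, 0.933 ± 0.327 and 2.48 ± 1.10 CPM. Trdv segments summed to 10.7 ± 0.303 CPM in WT isotype, 5.44 ± 2.60 in WT combination, 10.9 ± 2.06 in B-depleted isotype and 7.95 ± 1.11 CPM in B-depleted combination. These sums describe the libraries and carry no test. In bulk tumour RNA, more T cells and more receptor RNA per T cell cannot be told apart.

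**Figure D3:**
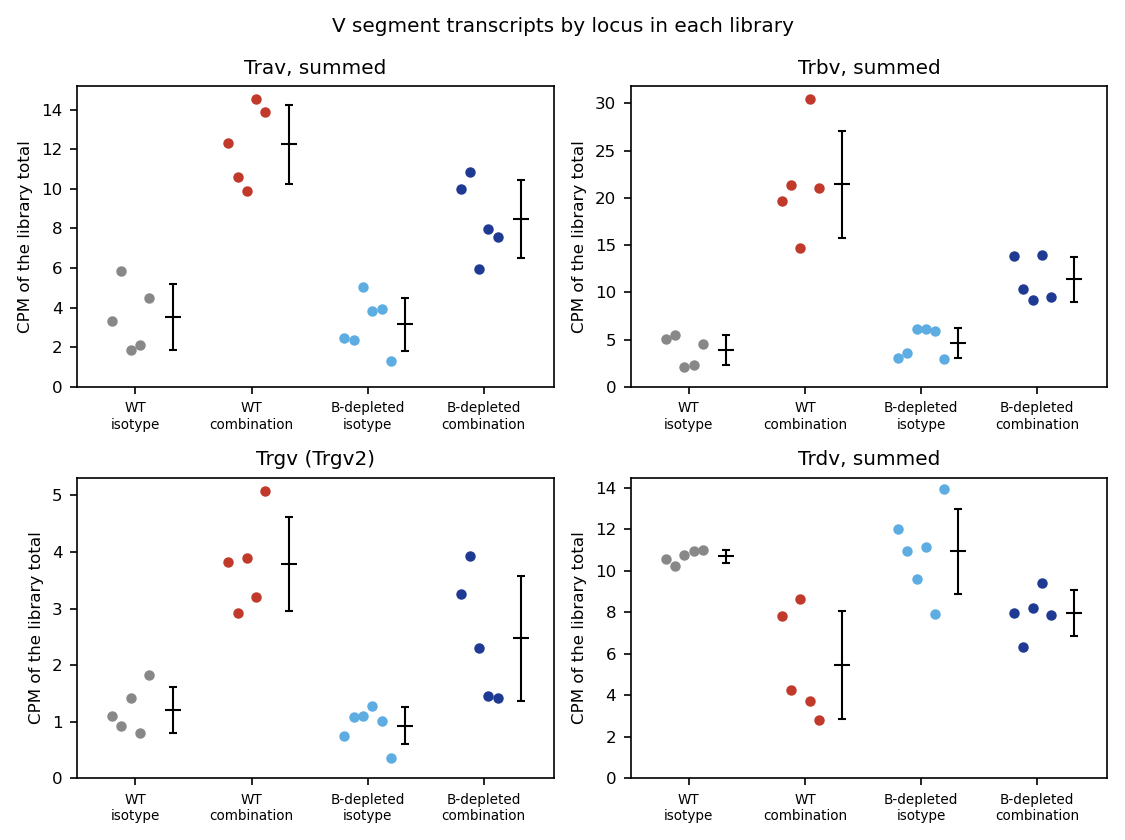
Summed V segment level (CPM of the library total) of each locus in each library, by group; points are libraries in replicate order, and the bar and whiskers to their right are the mean ± SD. The combination libraries lie above the isotype libraries of their background for Trav, Trbv and Trgv, and all 5 WT combination libraries lie below the WT isotype libraries for Trdv.

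The V segment level moved with that of the constant gene to which the segments are spliced. For every 100 counts of the beta constant genes Trbc1 and Trbc2 there were 22.0 ± 4.21 Trbv counts in WT isotype, 28.2 ± 2.55 in WT combination, 26.8 ± 4.54 in B-depleted isotype and 28.1 ± 4.72 in B-depleted combination libraries. For every 100 Trac counts, Trac being the alpha constant gene, there were 20.1 ± 4.60, 20.4 ± 1.56, 18.3 ± 2.75 and 22.8 ± 2.88 Trav counts. The ranges of all 4 groups overlapped for both ratios.

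In WT tumours the combination was compared with isotype antibody to see which segments respond in mice not labelled B-cell depletion. Of the 170 segments 11 rose, 1 fell, 2 were tested and not called and 156 were not tested; 50% of all genes tested were called in this comparison, 25% higher and 25% lower. The beta segment Trbv19 was at 0, 0.133, 0, 0 and 0.0552 CPM in WT isotype libraries 1 to 5 and at 0.900, 1.90, 0.503, 1.07 and 1.30 CPM in WT combination libraries 1 to 5. All 5 combination libraries lay above the isotype libraries. The pooled counts were 3 and 92, a ratio of 32.2 with an exact 95% counting interval of 10.7 to 159; the fitted log2 change (4.74 ± 0.70, edgeR adjusted p = 8.62e-05) depends on the small count added and is no bound. It was 5.70 without isotype library 2, which held 2 of the 3 counts.

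Trbv13-1 went from 0.110, 0.133, 0, 0 and 0.0552 CPM to 2.81, 1.14, 0.818, 1.66 and 0.717 CPM, and Trbv12-2 from 0.552, 0.0665, 0, 0.115 and 0.0552 CPM to 2.19, 2.54, 0.881, 1.54 and 1.37 CPM. Neither segment's groups overlapped, and isotype library 1 was the highest of its group for Trbv12-2, whose change was 4.69 without it. Both rose (Trbv13-1, 4.45 ± 0.67, edgeR adjusted p = 9.45e-05, and Trbv12-2, 3.35 ± 0.56, edgeR adjusted p = 0.000195). Trbv3 rose from 0.331, 0.200, 0.294, 0 and 0.165 CPM to 2.87, 2.98, 0.692, 0.949 and 2.28 CPM (3.26 ± 0.66, edgeR adjusted p = 0.000742). Its lowest combination library was 3, one of the 2 libraries that share a Trav profile.

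Trbv15, the highest beta segment per length in this series, was at 1.05, 0.732, 0.118, 0.0573 and 0.276 CPM under isotype and 2.47, 2.47, 4.53, 9.55 and 1.30 CPM under the combination (3.20 ± 0.83, edgeR adjusted p = 0.00408). Combination libraries 3 and 4 were the highest, and the groups did not overlap; without isotype library 1 the change was 3.82. Trbv14, Trbv16 and Trbv29 rose by 2.27 ± 0.51, 1.57 ± 0.41 and 1.91 ± 0.65 on the log2 scale (edgeR adjusted p = 0.00154, 0.00392 and 0.0199). For Trbv14, combination library 1 (0.112 CPM) lay within the isotype range. The Trbv29 call was lost without WT isotype library 5 (edgeR adjusted p = 0.0547). Trbv1 (0.79 ± 0.93, edgeR adjusted p = 0.492) and Trbv2 (1.27 ± 0.68, edgeR adjusted p = 0.128) were the 2 tested segments not called; Trbv1 was at 1.99 CPM in isotype library 5 and at most 0.401 CPM in the other 4.

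Of the alpha segments, Trav12-2 was at 0.331, 0.732, 0.0588, 0 and 0.110 CPM under isotype and 1.29, 1.46, 1.95, 3.03 and 0.521 CPM under the combination (2.78 ± 0.88, edgeR adjusted p = 0.0139). Combination library 5 lay within the isotype range, whose top was library 2 (3.64 without it). Trav8d-2 was counted 1 time in the 5 isotype libraries and 37 times in the combination libraries, where it stood at 0.225, 0.317, 0.189, 0.119 and 1.5 CPM. Combination library 5 held 23 of those counts, and without it the fitted log2 change was 3.50; it was 5.87 without isotype library 5, which held the other group's 1 count. The ratio of pooled levels was 38.9, with an exact 95% counting interval of 6.55 to 1576 (fitted log2 change 4.60 ± 1.03, edgeR adjusted p = 0.00149).

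Without a filter, segments can also be read by whether the CPM ranges of both groups touch. Of 103 segments with a count in either WT group, 13 lay wholly higher under the combination, where 8.38% of all genes did, and 1, Trdv4, wholly lower, where 7.71% did. Of the 13, 9 are called above. The other 4 were Trbv13-2, Trbv20, Trav14-2 and Trav5-4, of which the last 3 are named only for this and so after their values were seen. Trbv13-2 stood at 0.386, 0.200, 0.0588, 0.286 and 0.165 CPM under isotype and 0.506, 0.952, 0.755, 1.78 and 2.02 CPM under the combination.

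Gamma and delta segments parted. Trgv2, the V segment on the same strand as the constant gene Tcrg-C2 and nearest to it, was at 1.10, 0.931, 1.41, 0.802 and 1.82 CPM under isotype and 3.82, 2.92, 3.90, 3.20 and 5.08 CPM under the combination (1.65 ± 0.31, edgeR adjusted p = 0.00044). Tcrg-C2 rose too (1.24 ± 0.27, edgeR adjusted p = 0.00122). The 6 segments under Tcrg-V symbols summed to at most 0.770 CPM in any library.

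Trdv4 was at 10.4, 9.91, 10.8, 10.8 and 10.9 CPM in WT isotype and 7.59, 4.25, 8.37, 3.44 and 2.61 CPM in WT combination libraries. The isotype libraries lay close together; combination libraries 2, 4 and 5 lay lowest and libraries 1 and 3 nearer to isotype, and no combination library reached the isotype range. Trdv4 fell (-0.99 ± 0.24, edgeR adjusted p = 0.00266), and the call held in all 21 refits without 1 library. It was lost with the Y-linked level as a covariate (-0.22 ± 0.31, edgeR adjusted p = 0.864) and with the CD3 level (-0.21 ± 0.40, edgeR adjusted p = 0.925), both described below. The delta constant gene Trdc was at 7.81 ± 1.29 and 6.14 ± 0.612 CPM and was not called (-0.33 ± 0.15, edgeR adjusted p = 0.0712).

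Trdv4 held nearly all of the delta counts, 2881 of 2929. It was present in every library, while Trdv1, Trdv2-2 and Trdv5 never passed 0.275 CPM. There were 38.1 to 184 Trdv4 counts for every 100 Trdc counts in WT and 109.6 to 233 in B-depleted libraries. These ratios are not corrected for length. Over all libraries Trdv4 had a mean of 8.71 CPM on 444 exon bases, and Trdc 6.46 CPM on 3865, so Trdv4 stood further above Trdc per length. Whether all Trdv4 RNA is joined to Trdc was not tested. Trgv2 gave 19.6 to 54.1 for every 100 Tcrg-C2 counts over all libraries. Trdv4 lies 67.3 kb before Trdc, and the diversity segment Trdd1 between them held 130 counts. It also lies within the span of the antisense gene Gm30275, with 0 shared exon bases, and Gm30275 held 96 counts; whether the counting used strand is not given in the sources used here.

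Marker levels were read in the same groups as Trdv4. The summed level of 6 hepatoma and hepatocyte markers was 2612 ± 1394 CPM in WT isotype, 599 ± 441 in WT combination, 2472 ± 764 in B-depleted isotype and 1827 ± 591 CPM in B-depleted combination libraries. The 8 markers of gamma-delta T cells summed to 22.0 ± 3.20, 28.7 ± 4.09, 18.2 ± 1.32 and 24.0 ± 3.61 CPM, and 4 genes of immature thymocytes to at most 0.977 CPM in any library, with Rag2 at 0 in all. Between WT isotype and WT combination libraries, the hepatoma and hepatocyte sums overlapped (1156 to 4323 against 165 to 1258 CPM). The gamma-delta sums overlapped too (18.9 to 26.8 against 23.8 to 33.1 CPM). The part of these markers in the fall of Trdv4 was not tested.

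**Figure D4:**
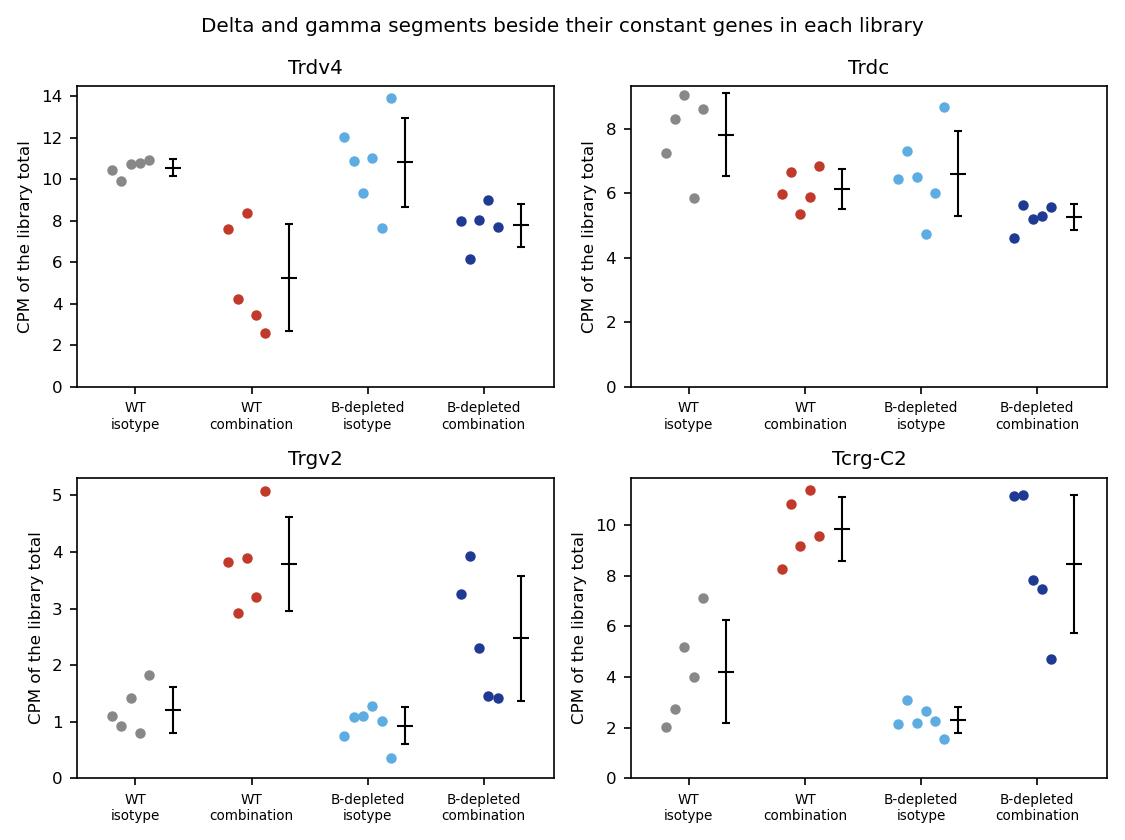
Level (CPM of the library total) of the delta segment Trdv4 and the delta constant gene Trdc (upper row), and of the gamma segment Trgv2 and the gamma constant gene Tcrg-C2 (lower row), in each library by group, with the mean ± SD at the right of the points. Trdv4 is lower in WT combination (5.25 CPM) than in WT isotype (10.6 CPM), whereas Trgv2 and Tcrg-C2 are higher.

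Other measures moved with the WT rises as well. Summed NK-cell markers went from 29.3 ± 13.5 to 81.3 ± 20.2 CPM and macrophage markers from 576 ± 126 to 1392 ± 381 CPM between the WT groups, without overlap, and their part in the V segment rises was not tested. The summed level of the CD3 chain genes Cd3d, Cd3e and Cd3g ran from 26.8 to 55.8 CPM in WT isotype and from 131 to 187 CPM in WT combination libraries, and that of the 4 Y-linked genes Ddx3y, Eif2s3y, Kdm5d and Uty from 47.6 to 79.2 and from 135 to 250.5 CPM. With the Y-linked level as a covariate none of the 14 segments was called by edgeR (6 had an unadjusted p under 0.05, and 11 stayed above 0), and with the CD3 level none was (1 and 11). Over all 19061 genes, 75 and 0 were called in these fits. With the Y-linked covariate the change of Trbv19 was 3.93 ± 1.09, that of Trbv13-1 4.16 ± 1.15, that of Trbv12-2 3.21 ± 0.93 and that of Trgv2 1.75 ± 0.53, and that of Trbv16 was 0.23 ± 0.80. Neither covariate overlapped between the WT groups, so the group and the covariate cannot be told apart. With linked libraries summed, 15 of the 25 segments then tested were called, where 8592 of 20349 genes were. Trav12-2 (2.67 ± 1.05, edgeR adjusted p = 0.0537) and Trbv29 (1.99 ± 0.78, edgeR adjusted p = 0.0531) were then lost. With no filter on low counts 25 of 103 segments and 8541 of 39551 genes were called.

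In B-depleted tumours the same antibodies raised 3 segments, Trav8d-2, Trbv3 and Trbv16, of the 14 tested, and lowered none, where 0.341% of all genes were called, 0.304% higher and 0.0367% lower. Trav8d-2 was counted 2 times in the 6 isotype libraries and 69 times in the combination libraries, at 1.05, 2.46, 0.819, 0.325 and 0.857 CPM in libraries 1 to 5. Every combination library held at least 4 counts and no isotype library more than 1. The ratio of pooled levels was 53.5, with an exact 95% counting interval of 14.2 to 450.2 (fitted log2 change 5.28 ± 0.85, edgeR adjusted p = 0.0133).

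The lowest, median and highest isotype libraries held Trbv3 at 0, 0.180 and 0.712 CPM, and the combination libraries at 3.99, 2.16, 1.41, 5.36 and 3.36 CPM. All combination libraries lay above the isotype libraries, libraries 4 and 1 most of all (3.80 ± 0.61, edgeR adjusted p = 0.0133). Trbv16 was at 0.0557, 0.0634 and 0.183 CPM in the lowest, median and highest isotype library and at 0.630, 0.847, 0.298, 1.06 and 0.785 CPM under the combination (2.86 ± 0.51, edgeR adjusted p = 0.0159). The groups did not overlap, but the Trbv16 call was lost without B-depleted isotype library 1 or 2, or combination library 5, at edgeR adjusted p of 0.0532 to 0.0568. It was also lost with the Y-linked covariate (edgeR adjusted p = 0.0713). The Trbv3 change was 4.60 without B-depleted isotype library 5.

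Trgv2 stood at 0.365, 1.05 and 1.28 CPM in the lowest, median and highest isotype library and at 3.26, 3.93, 2.31, 1.46 and 1.43 CPM under the combination, and it was not called although the groups did not overlap (1.42 ± 0.31, edgeR adjusted p = 0.0506). It was called without B-depleted isotype library 3 or 5, or combination library 4, at edgeR adjusted p of 0.0388 to 0.0463. Its constant gene Tcrg-C2 rose (1.87 ± 0.27, edgeR adjusted p = 0.00743). Trdv4 was lower by 0.46 ± 0.23 on the log2 scale and was not called (edgeR adjusted p = 0.37); the lowest, median and highest isotype library held 7.65, 11.0 and 13.9 CPM, and the combination libraries 7.98, 6.16, 8.04, 9.02 and 7.71 CPM, so that the groups overlapped.

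By range alone, 7 of the 87 segments with a count in either B-depleted group lay wholly higher under the combination, where 0.675% of all genes did, and 0 lay lower, where 0.497% did. They were Trav8d-2, Trbv3, Trbv13-1, Trbv13-2, Trbv14, Trbv16 and Trgv2. Trbv13-1, for example, was at 0.315, 0.539, 0.298, 0.325 and 0.286 CPM under the combination and at 0 in 4 of the 6 isotype libraries (2.61 ± 0.76, edgeR adjusted p = 0.133). Other beta segments that had risen in WT overlapped here, such as Trbv12-2 (0.42 ± 0.55) and Trbv15 (1.08 ± 0.77; edgeR adjusted p = 0.748 and 0.532). Trbv15 was at 2.73, 2.54 and 2.60 CPM in combination libraries 1 to 3 and at 0 and 0.357 CPM in libraries 4 and 5, the same division as in the Trav profiles.

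Counting those sets once changed the B-depleted calls. With the linked libraries summed, the combination group is 2 samples, and none of 25 segments tested was called by edgeR, although 7 had an unadjusted p under 0.05 and 20 lay above 0, and 1 of 20349 genes was. The changes were 5.33 ± 0.98 for Trav8d-2, 3.85 ± 0.64 for Trbv3 and 2.94 ± 0.53 for Trbv16 in that fit. Using the CD3 level as a covariate also left none called (4 with an unadjusted p under 0.05, 10 above 0), and a fit of the 2 groups alone tested 4 segments and called none (3 with an unadjusted p under 0.05); over all genes 0 and 6 were called. The CD3 level ran from 17.3 to 72.3 CPM in the isotype and from 75.1 to 103 CPM in the combination libraries, which do not overlap. DESeq2 and limma voom each called 3 of 14 segments, where 397 and 102 of 19061 genes were called. With no filter edgeR called 3 of 103 segments and 35 of 39551 genes.

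**Figure D5:**
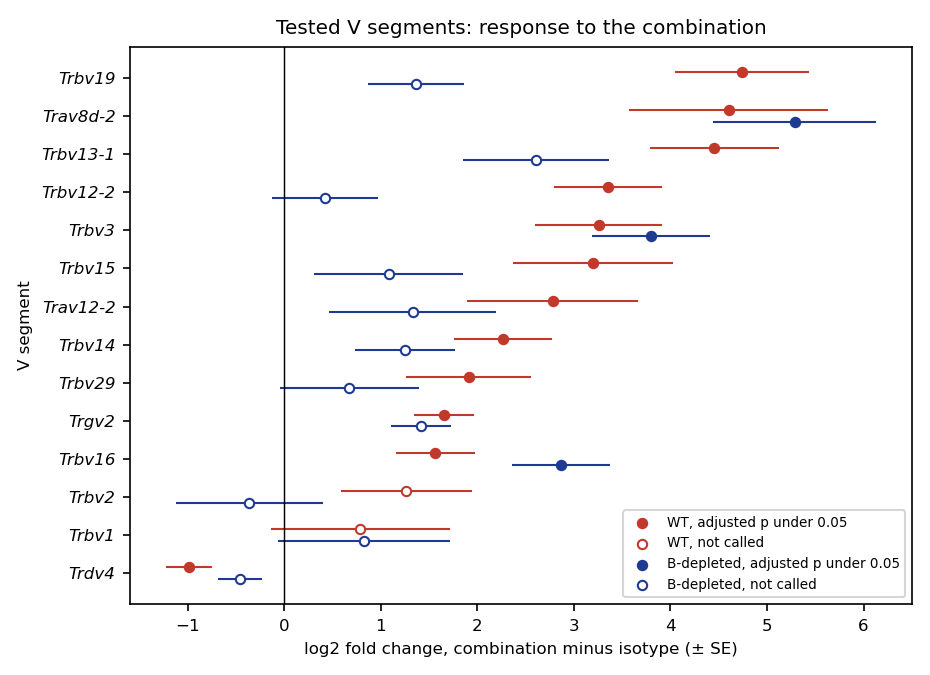
Log2 fold change, combination minus isotype, with its SE for the 14 tested V segments in WT (red) and B-depleted tumours (blue); filled points have an edgeR adjusted p under 0.05. Of the 14, 12 are filled in WT and 3 in B-depleted tumours, and Trdv4 alone lies below 0 in WT.

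Whether the 2 responses differ was tested by the interaction, and no V segment was called (2 had an unadjusted p under 0.05; DESeq2 and limma voom also called 0), where 0.0262% of all genes were, 0.0157% higher and 0.0105% lower. Over all 19061 genes edgeR called 5, limma voom 6 and DESeq2 1210. The smallest p belonged to Trbv19, whose response was lower by 3.37 ± 0.90 on the log2 scale in B-depleted tumours (edgeR adjusted p = 0.0785), followed by Trbv12-2, lower by 2.93 ± 0.79 (0.0793), and Trbv16, higher by 1.30 ± 0.65 (0.21). Trbv19 was called without WT combination library 3 or B-depleted combination library 5, and Trbv12-2 without either of those or WT isotype library 1, at edgeR adjusted p of 0.0302 to 0.0475. Over all genes, 1540, 1382 and 6 were called in those refits. For Trbv3 the responses differed by 0.54 ± 0.96 and for Trgv2 by -0.23 ± 0.44.

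Under isotype antibody alone, B-depleted and WT tumours were compared, and edgeR called 0 of 14 V segments (2 at an unadjusted p under 0.05), as did DESeq2 and limma voom; 0% of all genes were called. Trbv16 was lower by 2.29 ± 0.52 on the log2 scale and Trbv19 higher by 3.04 ± 0.76 in B-depleted tumours (edgeR adjusted p = 0.82 and 1). Trbv16 stood at 0.662, 0.865, 0.470, 0.286 and 0.165 CPM in WT isotype libraries and at 0.0557, 0.0634 and 0.183 CPM in the lowest, median and highest B-depleted isotype library; the highest of the latter lay above the lowest of the former (0.165 CPM), so the groups overlapped. No segment of the 87 with a count separated these groups by range in either direction, where 0.188% of genes were wholly higher and 0.125% wholly lower.

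Under the combination, 2 of the 14 segments were lower in B-depleted than in WT tumours and 0 were higher, where 29.1% of all genes were called, 13.5% lower and 15.5% higher. The share of segments called lower was thus near that of all genes. The 2 segments were Trbv13-1 (-2.01 ± 0.54, edgeR adjusted p = 0.015) and Trbv12-2 (-1.85 ± 0.51, edgeR adjusted p = 0.0159), whose per-library levels in the WT libraries stand above. In the B-depleted combination libraries Trbv12-2 was at 0.735, 0.770, 0.447, 0.244 and 0.214 CPM, each below the lowest WT combination library (0.881 CPM). The same held for Trbv13-1, whose highest B-depleted library (0.539 CPM) lay under the lowest WT library (0.717 CPM). Of 98 segments with a count, 3 lay wholly lower, these 2 and Trav9-4, where 3.5% of genes did, and 0 wholly higher, where 2.59% did. The share wholly lower was also near that of all genes.

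These comparisons share their libraries with the antibody comparisons. Both calls held in the 21 refits without 1 library. The count rose to 4 without WT isotype library 1 or 4 or B-depleted combination library 1. It was 5 without WT combination library 3 and 6 without WT combination library 1. In these refits, in that order, 18, 17, 17, 16 and 18 segments were tested, against 14. Over all genes 5545, 5277, 3635, 7101 and 6138 were then called. With the Y-linked level, the CD3 level or the linked libraries summed, the count was 0 by edgeR (4, 2 and 7 at an unadjusted p under 0.05). Over all genes 3, 0 and 238 were called there, against 5545. Trbv13-1 was then lower by 1.84, 0.99 and 2.06 on the log2 scale, and Trbv12-2 by 1.77, 1.76 and 2.02. Summed B-cell markers, 7 genes, were at 32.7 ± 14.8 CPM in WT combination and 11.8 ± 4.29 in B-depleted combination libraries, beside 9.77 ± 3.95 and 8.70 ± 2.49 CPM in the isotype groups. These sums overlapped between the isotype groups (5.64 to 15.2 CPM in WT and 4.57 to 11.6 CPM in B-depleted libraries). The B-cell gene Ms4a1 was at 0 in B-depleted combination libraries 1, 3 and 4 and at 0.308 and 1.57 CPM in libraries 2 and 5; in WT combination libraries it ran from 0.944 to 5.58 CPM. Their part in the V segment differences was not tested.

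How evenly the segments were used was read from the effective number, the inverse of the chance that 2 counts of a locus come from the same segment, which does not grow with depth. For Trav it was 8.53 ± 4.41 in WT isotype, 18.4 ± 5.57 in WT combination, 21.4 ± 16.5 in B-depleted isotype and 9.21 ± 3.18 in B-depleted combination libraries. The B-depleted isotype value carries a wide error, since library 6 held 25 Trav counts and gave 50.0. WT combination libraries ran from 12.2 to 26.6 and B-depleted combination libraries from 5.46 to 13.3, so that these groups overlapped.

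At an equal 25 counts, WT combination libraries held an expected 13.9 to 17.1 Trav segments and B-depleted combination libraries 10.6 to 12.6, which do not overlap. The other ranges were 9.38 to 14.4 in WT isotype and 9.95 to 19.0 in B-depleted isotype libraries. For Trbv the effective number was 9.02 ± 3.10, 10.7 ± 3.18, 8.22 ± 1.89 and 6.39 ± 1.30 in the 4 groups in the same order, and at an equal 35 counts 11.7 ± 1.84, 13.3 ± 0.871, 11.8 ± 0.783 and 10.7 ± 0.827 segments were expected. The 5 B-depleted combination libraries held 9.58 to 11.7 and the WT combination libraries 12.3 to 14.7. These are scores over the segments and carry no test, and the B-depleted combination values come from 2 sets of linked libraries.

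The leading segment differed between libraries. The leading Trav segment held 8.0 to 50.0% of a library's Trav counts, and the leading Trbv segment 10.8 to 43.9% of its Trbv counts. Trbv1 led in WT isotype library 5 at 43.9% (exact interval 33.0 to 55.3%) and in B-depleted isotype library 3 at 40.3% (28.5 to 53.0%), Trbv17 in B-depleted isotype library 5 at 25.0% (16.9 to 34.7%), Trbv15 in 4 of the 6 B-depleted isotype libraries at 21.8 to 29.4%, and Trbv3 in B-depleted combination libraries 1, 4 and 5 at 28.8, 38.4 and 35.3%. Trav6-1 held 34.5% of the Trav counts of B-depleted isotype library 3 (22.2 to 48.6%), and Trav7-5 held 22.4% in WT combination library 1 (17.0 to 28.5%). Dividing by exon length kept the same leading segment in 18 of 21 libraries for Trav and 17 of 21 for Trbv.

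Few counts were listed for the segments of invariant T cells. Trav11 and its copy Trav11d, which pair with Traj18 in natural killer T cells, had 0 and 1 counts, but they lie 1 edit apart, so these counts do not show their absence. Trav11n, an annotated pseudogene, had at most 3 counts in a library (B-depleted isotype library 5). Trav1, used by mucosal-associated invariant T cells, was counted in 8 libraries with at most 3 counts. For Trav1 and Trav11n the counts were too few to compare the groups. For Trav11 and Trav11d the near identity of the copies limits such a comparison as well.

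The partner genes of the receptor moved with the alpha and beta segments. In WT, 4 of the 6 constant genes tested rose and 0 fell (median 1.54 on the log2 scale, against 0.00 over all genes), and Trac, for example, went from 16.8 to 60.0 CPM (1.86 ± 0.25, edgeR adjusted p = 5.60e-05). All 41 joining genes tested, of 70, rose (median 1.99), with the smallest p for Traj22 (2.10 ± 0.33, edgeR adjusted p = 0.000127) and the highest change for Traj45 (2.83 ± 0.83, edgeR adjusted p = 0.00905), as did all 10 CD3 chain and early signalling genes (median 1.91; Cd3e, 1.91 ± 0.28, edgeR adjusted p = 7.47e-05) and all 3 coreceptor genes (median 2.26; Cd8a, 1.99 ± 0.25, edgeR adjusted p = 3.82e-05). Of 11 genes for receptor gene rearrangement 7 were tested, and 2 rose and 2 fell, a share near the 25% of all genes in each direction. Dclre1c and Prkdc, which act in end joining of broken DNA, rose by 0.94 and 0.43 (edgeR adjusted p = 0.0038 and 0.00243), and Xrcc5 and Xrcc6, which encode the Ku proteins that bind DNA ends, fell by 0.77 and 0.54 (0.000226 and 0.0052).

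In B-depleted tumours 2 of 6 constant genes (Trac and Tcrg-C2), 0 of 41 joining genes (11 at an unadjusted p under 0.05), 2 of 10 CD3 and signalling genes, 2 of 3 coreceptors and 0 of 7 rearrangement genes (1 at an unadjusted p under 0.05) rose by edgeR, and none fell. Trac rose by 1.11 ± 0.24 (edgeR adjusted p = 0.0437) and Cd8a by 1.46 ± 0.24 (0.0133). Between B-depleted and WT tumours under the combination, 3 constant genes, 19 joining genes, all 10 CD3 and signalling genes and 1 coreceptor gene, Cd4, were lower and none of them higher; of the rearrangement genes 2 were lower and 2 higher. Over all genes 13.5% were lower and 15.5% higher there. No gene of any list was called by edgeR between the isotype groups or in the interaction, where 20 of 41 joining genes had an unadjusted p under 0.05.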

How the data were processed

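RNA from frozen tumour tissue was made into libraries with the TruSeq Stranded mRNA kit, per the labels' protocols. The submitters' processing notes name STAR 2.7.2a, cutadapt 2.4 and the GRCm38 build. The authors deposited raw counts per Ensembl gene for 21 libraries. The counting program, its use of strand and its treatment of reads that match several genes are not stated in the labels. Gene identifiers were looked up, without version, in GENCODE M21 (55227 of 55487). Groups came from the sample titles. The tests used edgeR 4.0.16 (filterByExpr, TMM, robust quasi-likelihood fit, 1 model of 4 groups), limma 3.58.1 and DESeq2 1.42.0 under R 4.3.3; levels and usage were computed in Python 3.11.15. The model code was tested on simulated data. Total counts ran from 9.52 to 19.17 M. Alternatives were other scalings, tools, filters, covariates, blocks by replicate number, and refits without each library. Segments named were the 8 highest Trav and Trbv, the 4 highest Trdv, those called in a comparison (or the 3 with the smallest p), those that led a library, those of invariant T cells, and up to 4 called genes of each partner list. The segments, lists, tests and naming rule were chosen with earlier results of these data known.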

Additional observations from a re-analysis of the deposited data

Results flagged for a closer look

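By Dixon's criterion, a library stood apart from the others of its group in 33 of the 160 segment levels and usage measures tested. Each was the highest library of its group. The criterion assumes continuous values, and a library with any count is flagged whenever all others of its group are at 0. Some segments were also named because they led a library, so the number flagged cannot be set against a chance rate. Beta segments far above their group were Trbv1 in WT isotype library 5 (1.99 CPM, 43.9% of that library's Trbv counts) and B-depleted isotype library 3 (2.47 CPM), Trbv12-2 (0.552 CPM), Trbv17 (0.552 CPM) in WT isotype library 1, Trbv14 in WT isotype library 5 (0.441 CPM), Trbv17 in B-depleted isotype library 5 (1.48 CPM), Trbv19 in B-depleted isotype library 4 (0.947 CPM), and Trbv13-1 in B-depleted isotype library 5 (0.237 CPM) and B-depleted combination library 2 (0.539 CPM).

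Alpha segments with at least 7 counts in the library that stood apart were Trav7-5 in WT combination library 1 (2.76 CPM), Trav6d-4 in the same library (0.562), Trav8d-2 (1.5) and Trav21-dv12 (0.456) in WT combination library 5, Trav3-3 in WT isotype library 5 (0.552), and, in B-depleted isotype libraries, Trav6-1 in library 3 (1.74), Trav13-1 in library 4 (0.612) and Trav6n-6 in library 5 (0.415 CPM). In the WT groups, the rest were Trav6-1 in isotype library 2 (0.0665), Trav8d-2 in isotype library 5 (0.0552), Trav11n in combination library 1 (0.112) and Trav11d in combination library 4 (0.0593 CPM). In B-depleted isotype libraries they were Trav1 in library 3 (0.183), Trdv1 in library 4 (0.111), Trav11n (0.178) and Trav6d-4 (0.0593) in library 5, and Trav21-dv12 (0.104) and Trav9d-1 (0.104 CPM) in library 6. In B-depleted combination libraries they were Trav14-3 (0.105) and Trav6-1 (0.210) in library 1, and Trav4-4-dv10 (0.162), Trav6n-6 (0.0812) and Trdv1 (0.162 CPM) in library 4. Each of these last 15 rests on at most 3 counts.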

How the results depend on the processing

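RLE size factors, library totals and DESeq2 left every count of called segments within 1.5 times the value reported. The 12 calls in WT became 25 with no filter (103 segments tested), 7 with at least 1 CPM in 5 libraries (8 tested), and 0 with the Y-linked or the CD3 level as a covariate. The 3 calls in B-depleted tumours became 0 in a fit of the 2 groups alone, with the CD3 covariate or with linked libraries summed. The 2 calls between the combination groups became 4 with limma voom (14 tested), 6 with no filter (103 tested) and 1 with at least 1 CPM in 5 libraries (8 tested). Over all genes 5523, 3343 and 5524 were called in those fits. The 2 calls became 0 with the Y-linked covariate, the CD3 covariate or linked libraries summed. Summing linked libraries was chosen after seeing the data. Refits without 1 library gave 12 to 15 calls in WT, 2 to 5 in B-depleted tumours and 0 between the isotype groups. The 5 came without B-depleted isotype library 5, where 163 genes were called in place of 65. Between the combination groups the refits gave 2 to 6 calls, and the number of segments tested changed with the library left out. In the interaction they gave 0 to 2 (1 without WT isotype library 1, 2 without WT combination library 3 or B-depleted combination library 5). There 6, 1540 and 1382 genes were called in place of 5. Without WT combination library 1 or 3, Trdv4 was called higher in B-depleted than in WT combination tumours (0.71 and 0.80 on the log2 scale). With Shannon entropy in place of the inverse Simpson index the effective number was 25.9 for Trav in WT combination and 8.78 for Trbv in B-depleted combination libraries.

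A replicate block by title number gave 12, 2, 0, 3 and 0 calls, and by description number 12, 1, 0, 2 and 0, for WT, B-depleted, isotype groups, combination groups and interaction. In B-depleted tumours Trbv16 was lost under both blocks (edgeR adjusted p = 0.0539 and 0.0744) and Trbv3 under the description number (0.0522). Libraries with the same title number deviated from their group means with a median correlation of 0.0259 (11 of 30 over 0.1), so the numbers were not taken to pair samples. Sign changes touched only uncalled values near 0: Trdv4 in B-depleted tumours with the CD3 covariate (0.076), Trdv4 between isotype groups with the title number block (-0.081), with the CD3 covariate (-0.070) and in refits without 1 library (-0.071 to 0.10), and Trgv2 in the interaction with the CD3 covariate (0.11). The cause was not tested. Depth limits single segments, since only 14 of the 103 with a count could be tested.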
